A study of Mus musculus with 4 samples.

Results

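The genes described here encode the ligands, receptors, Smad proteins and regulators of transforming growth factor β (TGF-β), Nodal and bone morphogenetic protein (BMP) signalling. They were taken by gene symbol from a comparison of mouse morulae depleted of Nr1h2, the oxysterol-activated nuclear receptor LXRβ, with control morulae. The symbol rule found 49 of 13658 genes. It uses no measured value, although earlier results of these data were known when the group was chosen. Wild-type fertilized eggs were injected at the 1-cell stage with 4 to 5 pL of 100 µM siRNA, either a pool against Nr1h2 (siNr1h2) or a non-targeting control (siNT), and were grown in M16 medium to the morula stage. There were 2 samples per group, 4 in all, profiled for polyadenylated RNA. The labels give neither the number of embryos per sample nor whether the replicates were separate injections, so p-values measure only the spread between these samples, which may be technical. The values are those of the authors' deposited table, which gives 1 mean level, 1 fold change and 1 p-value per gene and no value per sample, so the depth of each sample is unknown and overlap between the groups cannot be shown.

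In this pathway a secreted dimer of the TGF-β family binds a complex of type I and type II serine/threonine kinase receptors on the cell surface. The type I receptor phosphorylates receptor Smads, which join Smad4 and enter the nucleus to change transcription. TGF-β, activin and Nodal ligands act mainly through Smad2 and Smad3, and BMPs through Smad1, Smad5 and Smad9. Nodal and its relative Gdf3 also need the co-receptor Cripto, encoded by Tdgf1. In mouse embryos Nodal signalling maintains the epiblast and patterns the early axis, and BMP signalling acts on the epiblast and extraembryonic lineages.

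Knockdown left Nr1h2 at 19.9% of its control level per the authors' deposited table (log2 fold change -2.33 ± 0.19, SE). The labelled stage was checked against 12 genes (13 listed symbols, of which Tcfap2c is an older name of Tfap2c), including Pou5f1, Nanog, Cdx2, Gata3 and Cdh1. All 12 genes had mean normalized counts (counts divided by size factors and averaged over the 4 samples) of at least 78.1, the value of the oocyte zona gene Zp3, per the authors' deposited table. The trophectoderm keratin Krt8, at -0.50 ± 0.14, was the 1 gene among them called at an adjusted p under 0.05, against 1.98% of all genes. An unadjusted p under 0.05 was found for 5 of the 12 (41.7%), 4 lower and 1 higher, against 12.0% of all genes. Whether the groups differed in stage was not tested. The median of the mean normalized counts over all genes was 142, so levels of at least 78.1 do not by themselves establish the stage. Of 14 cumulus and granulosa cell markers, 4 were analysed, led by Amhr2 and Star, at means of 1.94 to 65.1. None of those 4 passed the test, and of 6 sperm markers 0 were analysed here. Both blood markers that were analysed, Cd68 (mean 150) and Hba-a1 (mean 24.6), did not pass the test per the authors' deposited table.

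Tdgf1 was the 1 member called. Its level in siNr1h2 morulae was 69.7% of the control level per the authors' deposited table (95% interval 56.2% to 86.3%, normal distribution). That is a log2 fold change of -0.52 ± 0.16 (SE, DESeq2 Wald test, adjusted p = 0.0489). With a t distribution of 2 degrees of freedom the interval was 0.435 to 1.12 times the control, which includes no change. No member was called higher. A gene was called at an adjusted p under 0.05. The other 40 members with an adjusted p did not pass, and 8 members with means under 8 had none. Over all genes, 1.98% of 12069 were called, 1.52% lower and 0.456% higher, so 1 call among 41 members is close to the background share.

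Tdgf1 encodes a small membrane-anchored protein with an EGF-like domain, made by the pluripotent cells of the early embryo. Its mean normalized count was 561, above that of 74.3% of genes per the authors' deposited table. The call was a narrow one, since 237 of the 239 called genes had a smaller p. It was lost with Benjamini-Hochberg adjustment over every gene with a p-value (adjusted p = 0.0553) and with fold changes centred on genes with means of at least 500 (adjusted p = 0.0820). The call was also lost under Holm adjustment and with a t distribution of 2 degrees of freedom (adjusted p = 0.948). The t setting called 0 genes of the whole table, Nr1h2 included, so the loss there says nothing particular about Tdgf1. Centred on ribosomal protein genes it was kept, with a log2 difference of -0.63 (adjusted p = 0.00506). A second limit is sequence. The annotated pseudogene Tdgf1-ps1 matched 512 bases of the 1932-base Tdgf1 transcript at 98.8% identity, Tdgf1-ps2 matched 509 bases at 90.4% and the gene model Gm13455 matched 438 bases at 91.1%. How reads that match several copies were counted is not given in the sources used here, so the value of Tdgf1 is uncertain to that extent.

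**Figure D1:**
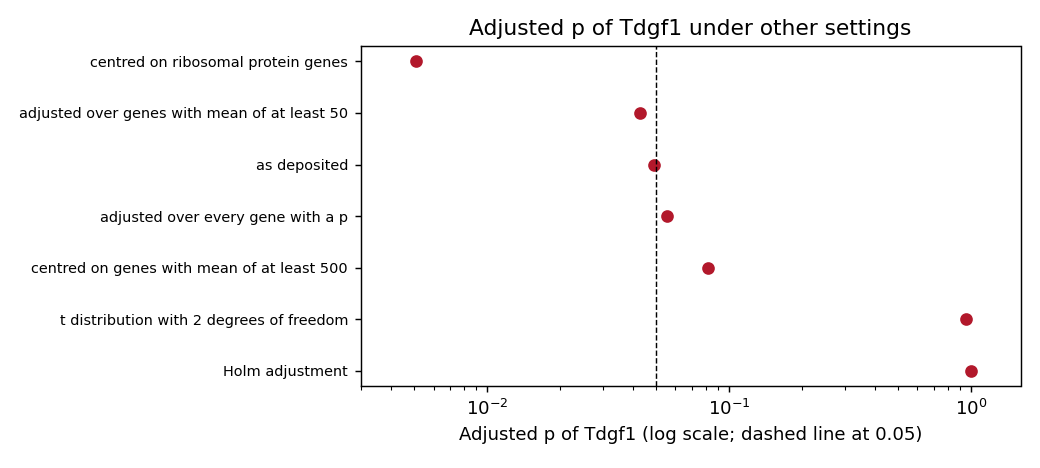
Adjusted p of Tdgf1 (horizontal axis, log scale) as deposited and under 6 other settings; each point is 1 setting and the dashed line marks 0.05. The deposited value of 0.0489 lies just inside the line, 2 settings lie further inside and 4 lie outside it, up to 1 under Holm adjustment. The t distribution of 2 degrees of freedom called 0 genes of the whole table.

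The promoter of Tdgf1 is shown because it is the 1 called member. The window runs from 250 bases before to 50 bases after the transcription start, from RefSeq, build GRCm38.p6, chr9:110946109-110946408, minus strand. Capitals mark the longest exact direct repeat in the window, a 19-base unit that stands in tandem and starts 50 and 31 bases before the transcription start.
Tdgf1 promoter: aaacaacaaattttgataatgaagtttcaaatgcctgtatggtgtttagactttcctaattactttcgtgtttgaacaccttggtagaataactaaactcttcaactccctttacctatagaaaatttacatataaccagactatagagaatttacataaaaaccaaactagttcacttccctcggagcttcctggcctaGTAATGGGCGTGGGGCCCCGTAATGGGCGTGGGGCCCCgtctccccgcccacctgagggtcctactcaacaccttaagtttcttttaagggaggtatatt
Each copy of the repeat holds the GC-rich word GGGCGTGG, which occurs on either strand in 5.33% of all 32851 promoter windows of this length and was searched for after the repeat had been seen. The nuclear receptor half-site AGGTCA (16.3% of all windows), its direct repeat with a 4-base spacer, the DR4 element (0.0152%), the palindromic Smad word GTCTAGAC (0.213%) and the GC-rich Smad word GGCGCC (11.9%) were searched for on both strands. The DR4 element contains the half-site. None of these 4 words occurs in the Tdgf1 window.

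Windows were found for 34 of the 49 members, 45 windows in all. AGGTCA occurred in 1 of them, at Tgif1, which makes 2.22% of the member windows. Its background share was computed only over all windows, which were poorer in GC than those of the members. GGCGCC occurred at 14 members, among them Bmpr1a, Bmpr2, Tgfbr1, Ski and Smad5, or 35.6% of member windows. The median GC content was 67.7% in the member windows, 60.3% in those of genes of the table (20.3% with GGCGCC) and 52.7% in all windows, so the GC-rich word was more frequent where the windows were richer in GC. These matches are descriptions of sequence; binding was not measured.

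The members spanned a wide range of levels. Divided by the length of the longest annotated transcript, the highest mean level per the authors' deposited table was that of Id3, at 916 normalized counts per kb, followed by Tdgf1 at 290, Smad4 at 225, Gdf3 at 209 and Bmpr1a at 190. Id3 is an inhibitor of basic helix-loop-helix factors and a target of BMP signalling, and Bmpr1a is a type I BMP receptor. The genes for a Nodal-type ligand, its co-receptor, a BMP receptor, the shared Smad and a BMP target gene thus made up the 5 highest levels per kb. They come from both arms of the pathway, and other parts of each arm had lower levels. The activin and Nodal type I receptor Acvr1b stood at 8.43 counts per kb and the BMP-arm Smad5 at 8.25. The lowest was that of Bmp1, at 0.664 counts per kb. These levels average both groups and carry no error, so neighbours in this order cannot be told apart by a test.

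**Figure D2:**
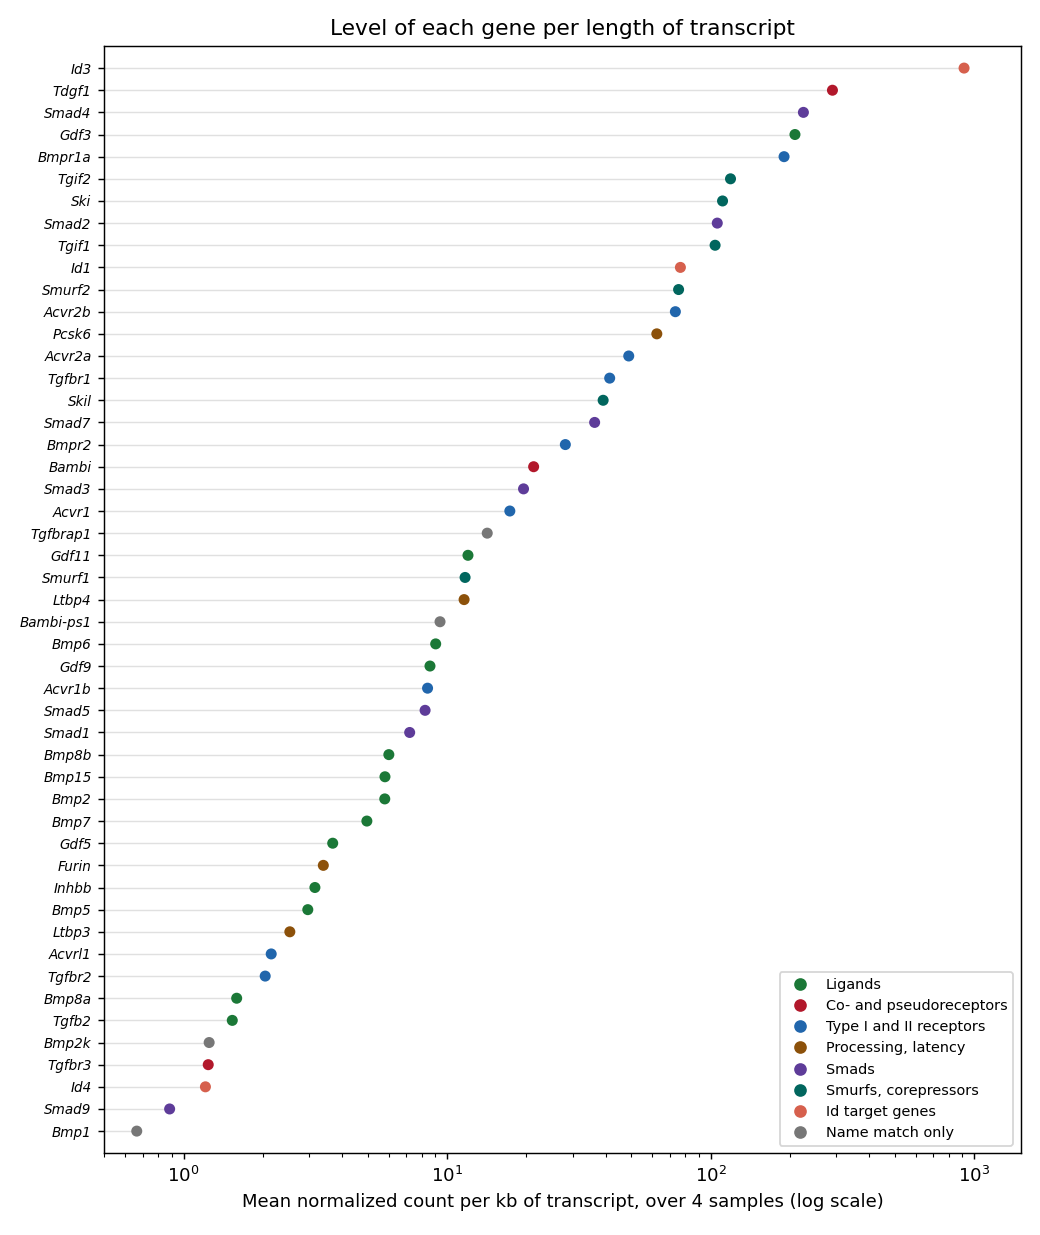
Mean normalized count per kb of the longest transcript (horizontal axis, log scale) for the 49 members, in order of level, averaged over the 4 samples by the authors; colours mark the roles. Id3, Tdgf1, Smad4, Gdf3 and Bmpr1a lead, and 12 of the 13 ligands lie at or under 12.0 counts per kb.

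Level set the precision of each comparison. At its own standard error a member with an adjusted p needed a fold change of 1.38 (Bmpr1a) to 8.80 (Bmp2k) to be called, and 11 of these 41 members needed more than 4-fold. The 8 members without an adjusted p could not be called at any fold. With a mean of at least 50 there were 25 members, with a median standard error of 0.21 on the log2 scale. In the other 24 the median was 0.73. The 95% interval of the fold change, from the normal distribution, lay within 2-fold in either direction for 23 members and within 1.5-fold for 14. With a t distribution of 2 degrees of freedom these counts were 12 and 0. Over the 41 members with an adjusted p, 21 lay below 0 and 20 above, and the median log2 fold change was -0.01, against 0.004 over the 12069 genes of the authors' deposited table. An unadjusted p under 0.05 was found for 4 of 49 members, or 8.16%, against 12.0% of 13658 genes.

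**Figure D3:**
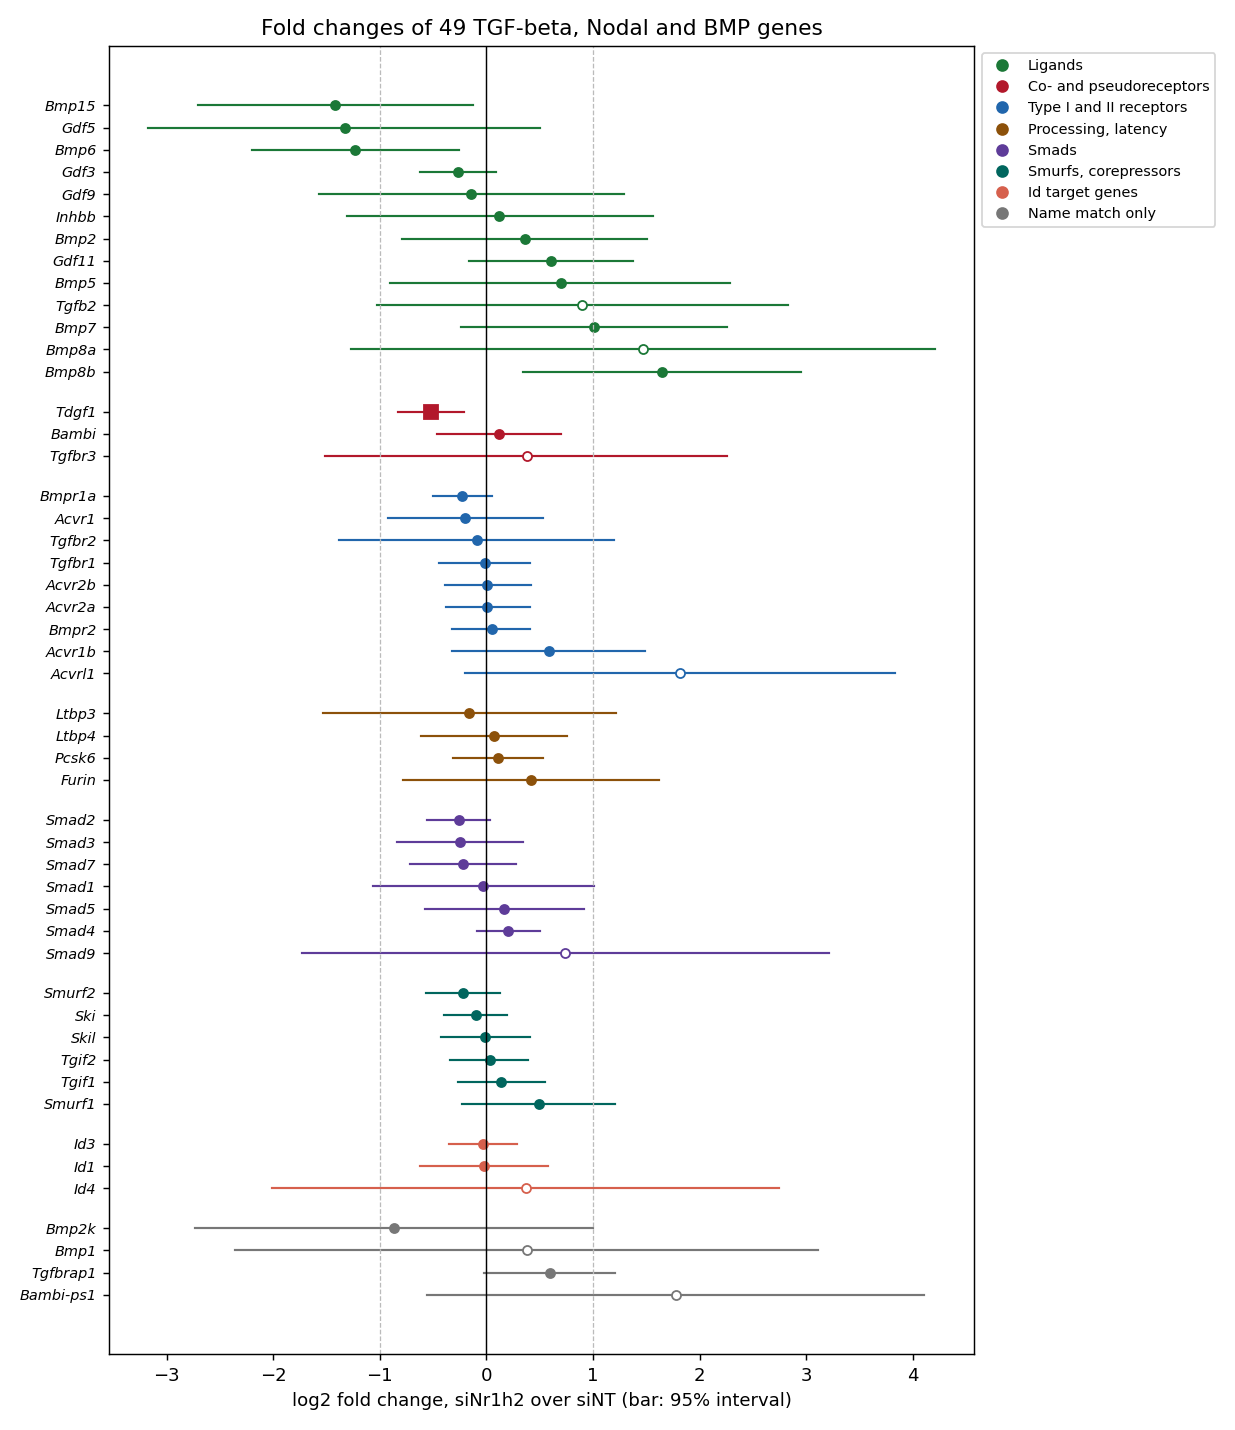
Log2 fold change of siNr1h2 over siNT (horizontal axis) for the 49 members, grouped by role; points are the authors' values and bars 95% intervals from the normal distribution. Tdgf1, the square at -0.52, was the 1 called member, open points had no adjusted p, and dashed lines mark a 2-fold change in either direction.

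The 13 ligands were mostly scarce, and none passed the test. Gdf3, a Nodal-related ligand that signals through Cripto, was the exception in level, with a mean of 445. Its log2 fold change per the authors' deposited table was -0.27 ± 0.18 (SE, adjusted p = 0.549), and its 95% interval ran from 0.651 to 1.06 times the control. Inhbb, the activin βB subunit, had a mean of 13.4 and a log2 fold change of 0.12 ± 0.73 per the authors' deposited table. The other 12 ligands all had means under 50. Those with an adjusted p each needed at least a 2.46-fold change to be called, and Tgfb2 and Bmp8a, without one, could not be called. Tgfb2, the 1 TGF-β ligand found, had a mean of 7.81, a log2 fold change of 0.90 ± 0.98 and no adjusted p. Nodal itself, its antagonists Lefty1 and Lefty2, the activin antagonist Fst and the inhibin subunits Inha and Inhba were not analysed here.

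The BMP and GDF ligands held 3 of the 4 members with an unadjusted p under 0.05, and these lay in both directions. They were 3 of 10 such ligands (30.0%), 2 lower and 1 higher, against 12.0% of all genes. All 10 ligands had means under 50, and of all genes with such means 7.72% had an unadjusted p under 0.05. The ligands were not tested as a set. Bmp6 had a mean of 32.5 and a log2 fold change of -1.23 ± 0.50 per the authors' deposited table (SE, adjusted p = 0.216). Bmp15, an oocyte-secreted factor, had a mean of 17.8 and stood at -1.42 ± 0.66 (adjusted p = 0.311, authors' deposited table). Bmp8b, a BMP known in mice from its part in germ cell formation, had a mean of 17.7 and stood at 1.65 ± 0.67 (adjusted p = 0.216, authors' deposited table). None of these values passed the test, and their 95% intervals were wide, from 0.217 to 0.837 times the control for Bmp6, 0.153 to 0.912 for Bmp15 and 1.27 to 7.75 for Bmp8b. Bmp6 shares 224 exon bases with Txndc5 on the opposite strand and Bmp8b shares 133 with Ppie, in a library type that does not mark strand, so that reads from these stretches cannot be assigned. Txndc5 stood at -0.16 ± 0.23 and Ppie at 0.08 ± 0.14 per the authors' deposited table, with means of 185 and 1110.

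Bmp15 is also a marker of the oocyte, as is Gdf9, its close relative. Gdf9 had a mean of 15.4 and a log2 fold change of -0.14 ± 0.73 per the authors' deposited table (adjusted p = 0.963). Of the oocyte list, 7 of 8 genes were analysed and none passed, with means of 5.32 to 78.1, 3 log2 fold changes below 0 and 4 above. The zona gene Zp3 stood at -0.73 ± 0.32 (adjusted p = 0.276) and Zp2 at 0.99 ± 0.68 (adjusted p = 0.558) per the authors' deposited table. The part of residual oocyte RNA in the Bmp15 value was not tested.

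Setting aside Gdf3, grouped here with Nodal, the highest mean among the BMP and GDF ligands was 48.9 for Gdf11, a relative of myostatin, whose log2 fold change was 0.61 ± 0.39 per the authors' deposited table (adjusted p = 0.523). Bmp7 stood at 1.01 ± 0.64, Bmp5 at 0.70 ± 0.82, Bmp2 at 0.36 ± 0.59 and Gdf5 at -1.33 ± 0.94 per the authors' deposited table, none of them called. Bmp8a had a mean of 3.82, a log2 fold change of 1.47 ± 1.40 and no adjusted p per the authors' deposited table. At their standard errors, Bmp2, Bmp5, Bmp7 and Gdf5 needed changes of 3.82-fold to 8.53-fold to be called.

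**Figure D4:**
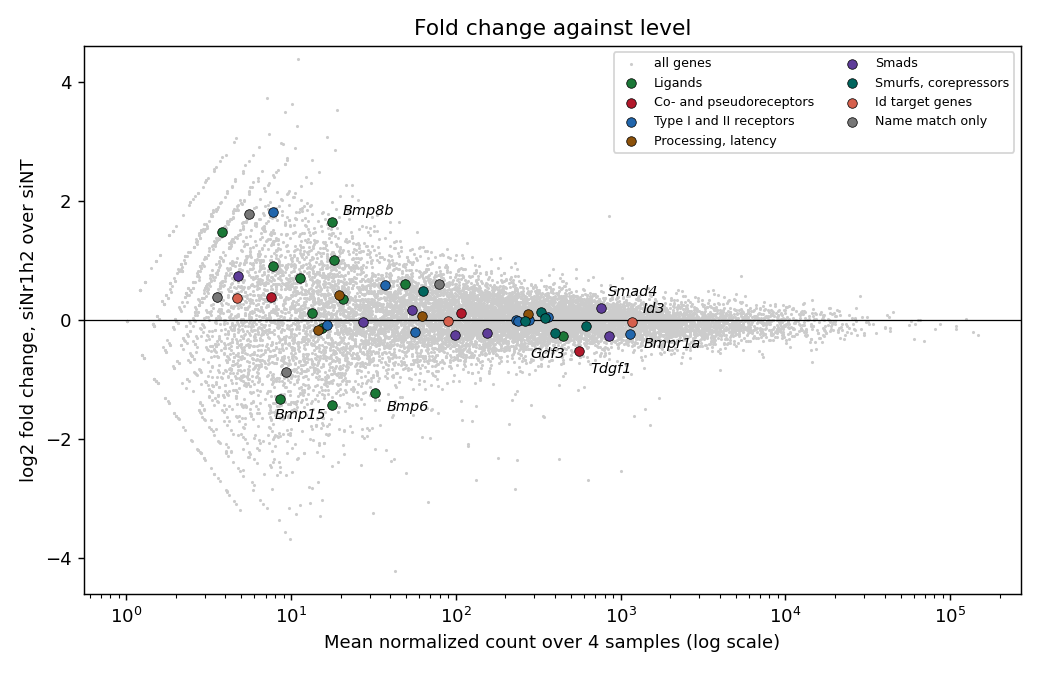
Log2 fold change of siNr1h2 over siNT (vertical axis) against mean normalized count over the 4 samples (horizontal axis, log scale) for all 13658 genes (grey) and the 49 members (coloured by role). The scatter of all genes widens towards low counts, where the ligands Bmp6, Bmp8b and Bmp15 lie, while Tdgf1 lies at a mean of 561.

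The receptors were measured more precisely than the ligands, and none of the 8 with an adjusted p passed. Of the type II receptors, which phosphorylate the type I receptors, 3 had log2 fold changes of 0.01 to 0.05. Acvr2a, an activin and Nodal receptor, had a mean of 278 and a log2 fold change of 0.01 ± 0.20 per the authors' deposited table (SE), with an interval of 0.768 to 1.33 times the control. Acvr2b, its paralogue, had a mean of 233 and stood at 0.01 ± 0.21 (0.763 to 1.34 times, authors' deposited table). Bmpr2, the type II BMP receptor, had a mean of 363 and stood at 0.05 ± 0.19 (adjusted p = 0.948, authors' deposited table), with the lowest p of this class. These 3 intervals lay within 1.5-fold by the normal distribution and reached from 0.547 to 1.86 times the control with the t distribution of 2 degrees of freedom. Acvr2a shares 446 exon bases with Orc4 on the opposite strand, which had a mean of 2690 and stood at -0.36 ± 0.13 per the authors' deposited table, so its value is uncertain. Their sign turned with centring on ribosomal protein genes, to between -0.06 and -0.09. Tgfbr2, the TGF-β type II receptor, had a mean of 16.5 and stood at -0.09 ± 0.66 per the authors' deposited table.

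Among type I receptors, Bmpr1a had the highest mean, 1133, and a log2 fold change of -0.23 ± 0.14 per the authors' deposited table (SE, adjusted p = 0.507; 0.705 to 1.04 times the control). Tgfbr1, the TGF-β type I receptor, stood at -0.01 ± 0.22 (0.739 to 1.33 times, authors' deposited table) with a mean of 238. Acvr1b, the activin and Nodal type I receptor that pairs with Cripto, had a mean of 37.2 and stood at 0.59 ± 0.46 per the authors' deposited table (adjusted p = 0.630). Acvr1, a BMP type I receptor, had a mean of 56.9 and stood at -0.20 ± 0.37 per the authors' deposited table. The class member with the smallest p was Acvrl1, known as an endothelial receptor, at 1.82 ± 1.03 (p = 0.0775) with a mean of 7.81 and no adjusted p per the authors' deposited table. Of the other surface proteins, the pseudoreceptor Bambi, which lacks a kinase domain and blocks signalling, had a mean of 108 and stood at 0.12 ± 0.29 (adjusted p = 0.914, authors' deposited table). The TGF-β co-receptor Tgfbr3 had a mean of 7.53, a log2 fold change of 0.38 ± 0.96 and no adjusted p per the authors' deposited table.

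Smad transcripts of the activin and Nodal arm had higher levels per kb than those of the BMP arm. Per kb of transcript the authors' mean level was 106 for Smad2 and 19.5 for Smad3, against 8.25 for Smad5, 7.21 for Smad1 and 0.885 for Smad9. None of the 6 Smads with an adjusted p passed. Smad2, with a mean of 856, had the smallest p of the Smads, at a log2 fold change of -0.26 ± 0.15 per the authors' deposited table (SE, adjusted p = 0.448; 0.681 to 1.02 times the control). Smad4, the partner of all receptor Smads, had a mean of 762 and stood at 0.20 ± 0.15 (adjusted p = 0.603; 0.937 to 1.41 times, authors' deposited table). Smad3 stood at -0.25 ± 0.30, Smad5 at 0.17 ± 0.38 and Smad1 at -0.03 ± 0.53 per the authors' deposited table. Smad7, the inhibitory Smad that signalling itself induces, had a mean of 155 and stood at -0.22 ± 0.25 per the authors' deposited table (adjusted p = 0.775). Smad9 had a mean of 4.75, a log2 fold change of 0.74 ± 1.26 and no adjusted p per the authors' deposited table.

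The negative regulators and the enzymes that mature ligands did not pass either. Smurf2, a ubiquitin ligase that degrades receptors and Smads, had a mean of 400 and stood at -0.22 ± 0.18, and its paralogue Smurf1 had a mean of 63.4 and stood at 0.49 ± 0.37 per the authors' deposited table (SE, adjusted p = 0.652 and 0.603). The 4 nuclear corepressors were among the most tightly bounded members. Ski, with a mean of 616, stood at -0.10 ± 0.15, Skil at -0.01 ± 0.21, Tgif1 at 0.14 ± 0.21 and Tgif2 at 0.03 ± 0.19 per the authors' deposited table, each with its 95% interval within 1.5-fold by the normal distribution. Tgif2 shares 2171 exon bases with the gene 5430405H02Rik on the opposite strand, which had a mean of 47.7. The pseudogenes Tgif2-ps1 and Tgif2-ps2 matched 716 bases of it at 94.97% identity and 711 bases at 99.6%, so its level is uncertain. Pcsk6, a proprotein convertase that cleaves Nodal, had a mean of 275 and stood at 0.11 ± 0.21 per the authors' deposited table. The related convertase Furin had a mean of 19.5 and stood at 0.42 ± 0.61 (adjusted p = 0.829), the lowest p of its class per the authors' deposited table. Ltbp4 and Ltbp3, which hold latent TGF-β in the matrix, had means of 62.4 and 14.5 and stood at 0.07 ± 0.35 and -0.16 ± 0.70 per the authors' deposited table.

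The Id genes, direct targets of BMP-activated Smads, showed no change past the threshold. Id3, the member with the highest mean (1170), stood at -0.03 ± 0.16 per the authors' deposited table (SE, adjusted p = 0.968; 0.785 to 1.22 times the control). Id1 had a mean of 89.1 and stood at -0.02 ± 0.31 (0.651 to 1.5 times, authors' deposited table). Id4 had a mean of 4.67, a log2 fold change of 0.37 ± 1.22 and no adjusted p per the authors' deposited table. With the t distribution of 2 degrees of freedom the interval of Id3 widened to 0.601 to 1.6 times the control. The signs of Id1 and Id3 turned with centring on genes with means of at least 500, to 0.02 and 0.01.

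The symbol rule also matched 4 genes that were placed in none of the classes above and are labelled as name matches in the figures. Bmp1 encodes a procollagen protease and Bmp2k a kinase, Tgfbrap1 encodes an adaptor that binds TGF-β receptors and Bambi-ps1 is a pseudogene. Tgfbrap1 had the smallest p of the 4, at a log2 fold change of 0.60 ± 0.31 and a mean of 79.5 per the authors' deposited table (SE, adjusted p = 0.401). Bmp2k stood at -0.87 ± 0.95 with a mean of 9.27 per the authors' deposited table. Bmp1 (0.38 ± 1.40) and Bambi-ps1 (1.78 ± 1.19) had no adjusted p per the authors' deposited table.

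Other genes of the pathway, from 4 lists of regulators, cofactors and targets outside the symbol rule, had no called gene among the 67 of 77 with an adjusted p. By unadjusted p under 0.05 there were 6 lower and 4 higher, 13.0% of the 77, against 12.0% of all genes. Their median log2 fold change was 0.02 per the authors' deposited table. No other count tool could be run without values per sample.

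The intracellular regulators came closest to the threshold. Of 23 with an adjusted p, 12 lay below 0 and 11 above. By unadjusted p under 0.05 there were 4 lower and 1 higher, 20.8% of the 24 genes, against 12.0% of all genes. Usp9x, a deubiquitinase that acts on Smad4, had a mean of 527 and stood at -0.51 ± 0.16 per the authors' deposited table (SE, adjusted p = 0.0565). That is a log2 difference of nearly the size of that of Tdgf1, on the other side of the threshold. Usp9x was called when p-values were adjusted over genes with means of at least 50 and when fold changes were centred on ribosomal protein genes. Zfyve9 (SARA), which presents Smad2 and Smad3 to the receptor, had a mean of 135 and stood at -0.68 ± 0.26 (adjusted p = 0.180, authors' deposited table). Its relative Zfyve16 stood at -0.56 ± 0.25 (adjusted p = 0.290, authors' deposited table).

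The extracellular regulators had 12 genes with an adjusted p, 5 below 0 and 7 above. By unadjusted p under 0.05 there were 2 lower and 1 higher, 21.4% of the 14 genes, against 12.0% of all genes. Amhr2, the anti-Müllerian hormone receptor and also a granulosa cell marker, stood at 0.80 ± 0.35 with a mean of 65.1 per the authors' deposited table (adjusted p = 0.276). Pcsk7, a proprotein convertase, stood at -0.51 ± 0.25 with a mean of 144 per the authors' deposited table (adjusted p = 0.356). Cfc1, the paralogue of Tdgf1 that can also serve Nodal as co-receptor, had a mean of 36.3 and stood at 0.07 ± 0.47 per the authors' deposited table (adjusted p = 0.973).

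Smad cofactors had 16 genes with an adjusted p, 8 on each side of 0. By unadjusted p under 0.05 there were 0 lower and 2 higher, 11.1% of the 18 genes, against 12.0% of all genes. Pou5f1 stood at 0.43 ± 0.15 with a mean of 680 per the authors' deposited table (adjusted p = 0.117). Foxh1, the DNA-binding partner of Smad2 in Nodal responses, stood at 1.41 ± 0.60 with a mean of 23.3 per the authors' deposited table (adjusted p = 0.260). Of the target genes of the pathway, 16 had an adjusted p, 6 below 0 and 10 above. An unadjusted p under 0.05 was found for 0 of the 21 target genes, against 12.0% of all genes. Ccn2, a TGF-β target, stood at 0.28 ± 0.18 (adjusted p = 0.515), and Klf10, a TGF-β-inducible repressor, at -0.20 ± 0.17 (adjusted p = 0.652) per the authors' deposited table. Id2, the Id gene outside the symbol rule, had a mean of 695 and stood at -0.16 ± 0.16 per the authors' deposited table (adjusted p = 0.733). In these bulk samples, fewer cells of a type and less RNA per cell cannot be told apart.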

How the data were processed

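Per the labels' protocols, morulae were made into full-length cDNA with SMART-Seq v4 and sequenced as Nextera XT tagmentation libraries. The submitters' processing notes name STAR, HTSeq 0.12.4, RSEM, Cufflinks 2.2.1, edgeR, DESeq2 and build mm9, without roles. Per the file headers, the authors deposited a signal value per gene (mean count divided by size factors), a log2 fold change, its standard error and Wald statistic (score columns), a p-value and an adjusted p-value. The deposited columns were checked against each other: the statistic was the fold change over its standard error, and the adjusted p the Benjamini-Hochberg value over 12069 genes. The table holds no value per sample (0 such columns were left out), so no test per gene was run again. Computed here were counts of calls, 95% intervals (normal distribution), the fold needed for a call (a Wald statistic of 3.30, from the largest p called), levels per kb of longest GENCODE M21 transcript (49 of 49 members matched by symbol; GRCm38, a later build than mm9), exon overlaps, transcript matches of at least 200 bases and 90% identity (BLAST 2.17.0) and promoter words. Python 3.11.15, pandas 2.3.3 and scipy 1.17.1 were used, and the adjustment was tested on simulated data. Members and lists were chosen with earlier results of these data known. The text names every member and, per list, every called gene and the 2 genes with the smallest p. Intervals from a t distribution were added after the data were seen. Zfyve16, Cfc1 and Id2 were named after their values were seen, and so were the markers beyond the 2 smallest p-values.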

Additional observations from a re-analysis of the deposited data

How the results depend on the processing

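Against 184 lower and 55 higher genes of the whole table, calls numbered 92 and 17 at a threshold of 0.01, 270 and 125 at 0.1, 66 and 24 with a log2 change of at least 1, 48 and 1 under Holm adjustment, 0 and 0 with a t distribution of 2 degrees of freedom (which even Nr1h2 did not pass) and 448 and 36 when centred on ribosomal protein genes. Centred on genes with means of at least 500 they numbered 142 and 82. For the 49 members, 1 called gene, Tdgf1, remained at a threshold of 0.1, over genes with means of at least 50 (adjusted p = 0.0427) and when centred on ribosomal protein genes. The count fell to 0 at 0.01, with a log2 change of at least 1, over every gene with a p-value, under Holm adjustment (adjusted p = 1), with the t distribution (adjusted p = 0.948) and when centred on genes with means of at least 500. No member was called higher under any of these settings. Of the other pathway genes 1, Usp9x, was called lower at 0.1, over genes with means of at least 50 and when centred on ribosomal protein genes. Signs turned only for members within 0.07 of 0. Centred on genes with means of at least 500, Id1 stood at 0.02, Id3 and Smad1 at 0.01, and Skil and Tgfbr1 at 0.03. Centred on ribosomal protein genes, Acvr2a and Acvr2b stood at -0.09, Bmpr2 at -0.06, Ltbp4 at -0.04 and Tgif2 at -0.08. The ribosomal protein genes had a median log2 fold change of 0.107. The median of the members stayed between -0.11 and 0.03. Leaving out each replicate and a second count tool were not run, since the table holds no values per sample. No paired analysis was possible because the table holds no value per sample. Of the 24 members with means under 50, none had an interval within 2-fold.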
